A study of Mus musculus with 51 samples.

Results

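Sorted epithelial cells of primary mammary tumors were compared with sorted cells of the hyperplastic stage that comes before them in the same mouse model. Arrays were chosen by their titles: 8 arrays of sorted, non-transplanted tumor and 4 arrays of sorted hyperplastic mammary epithelial cells, 12 of the 51 arrays in the series. In all of these mice a conditional Etv6-NTRK3 knock-in allele was switched on by Wap-Cre, and a floxed lacZ reporter at Rosa26 (Rosa-Stop-lacZ) let recombined cells be isolated as lacZ-positive. The hyperplasia arrays came from 4 mice and the tumor arrays from 6, and tumor replicates 5, 6 and 7 were separate tumors of 1 mouse. The labels used here do not state age, strain, parity or the time between recombination and tissue collection. The other arrays were of sorted transplanted tumors (7), unsorted primary tumors (23), unsorted transplanted tumors in RAG2-/- hosts (4) and wild-type mammary glands of normal mice (5), and they served to estimate the spread of each gene.

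Wap is a milk protein gene of secretory epithelium, so Wap-Cre acts in mammary cells that have entered, or are close to, milk secretion. Etv6-NTRK3 fuses the dimerizing part of an ETS family repressor to the tyrosine kinase of a neurotrophin receptor, which makes the kinase active without ligand, and the human counterpart of this fusion defines secretory breast carcinoma. Hyperplastic mammary epithelium keeps growing within ducts and alveoli, in contact with fat, fibroblasts, vessels and immune cells, whereas a tumor forms its own tissue mass. A sort enriches marked cells, and RNA of other cell types can remain in the sorted fraction.

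All values are log2 intensities of Affymetrix probe sets, in which 5 is the floor set here on dim signals, and each gene is read by 1 probe set. A level is given as the group mean ± SD. A difference is tumor minus hyperplasia ± SE from limma, called at an adjusted p (Benjamini-Hochberg over 15150 genes) under 0.05, with each gene's spread estimated jointly from the 6 groups and mouse as a random block. Each of the 12 tumor and hyperplasia arrays came from a different mouse, apart from tumors 5 to 7. The epithelial keratin gene Krt8 was bright in both groups, at 11.48 to 12.40 in hyperplasia and 11.25 to 12.80 in tumors. So was the adhesion gene Epcam, at 10.40 to 11.77 and 9.82 to 12.44. These 2 genes do not measure how pure the sort was. In hyperplasia 24 macrophage genes averaged 10.10 and 28 fibroblast genes 9.68, against 8.96 for 23 epithelial genes. The same means in tumors were 8.82, 8.11 and 9.50. Median array intensities ranged from 46.1 to 56.4, and precision is limited by how many arrays there are.

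Several arrays stood apart, and each bears on the results. On tumor replicate 4 the genes of fibroblasts and matrix averaged 10.27 over 28 genes, above all 4 hyperplasia arrays (9.34 to 9.95), while the other tumors ran from 7.09 to 8.97. This tumor was the highest of the 8 for 186 of 358 genes called lower in tumors that any tumor array held above the floor. Hyperplasia replicate 1 was the highest hyperplasia array for 210 of the 378 genes called lower and the lowest for 149 of the 195 genes called higher. Bacterial spike-in control probe sets were brighter on hyperplasia replicates 1 and 2 (12.4 and 11.3) than on replicates 3 and 4 (9.19 and 8.80) or the tumors (8.08 to 10.2). The group difference in spike-in signal had an exact two-sided permutation p of 0.0505, and 0.227 adjusted over 5 technical measures. The ratio of 3' to 5' Gapdh control probe sets split the arrays into hyperplasia replicates 1 to 3 with tumors 1 to 4, below -0.1 on the log2 scale, and hyperplasia replicate 4 with tumors 5 to 8, above it.

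Sorted tumor cells differed from sorted hyperplastic cells in 573 of 15150 genes (3.78%), of which 195 (1.29%) were higher and 378 (2.50%) were lower in tumors. The median difference over all genes was 0.01, with 51.3% of genes positive. The 8 tumor arrays all lay on 1 side of the 4 hyperplasia arrays in 1.34% of genes, above them in 92 (0.607%) and below them in 111 (0.733%). Both criteria were met by 120 genes (0.792%), with 53 (0.350%) higher and 67 (0.442%) lower. Among the 7 arrays with a Gapdh ratio below -0.1, 669 genes were called (4.42%), 293 of them lower (1.93%) and the others higher (2.48%), so that the share of higher calls was 56.2% there and 34.0% over all arrays. The arrays above that ratio held only 1 hyperplasia sample. Without hyperplasia replicate 1 the counts were 28 higher and 129 lower, without replicate 2 they were 72 and 208, and without replicate 4 they were 353 and 593. Without hyperplasia replicate 3 there were 359 higher calls.

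**Figure D1:**
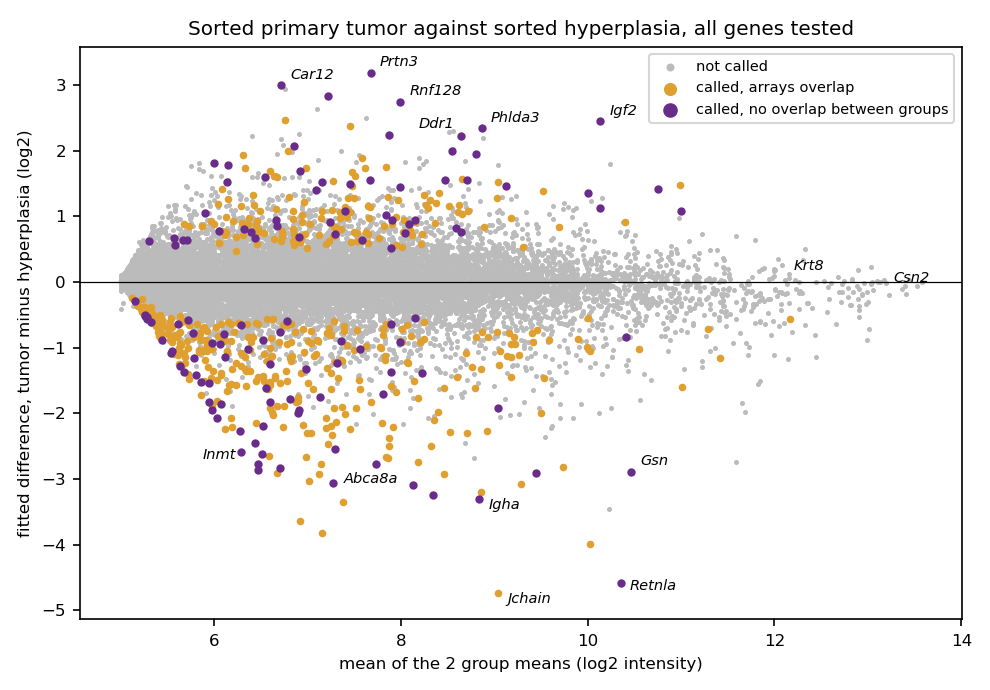
Fitted log2 difference, tumor minus hyperplasia, of each of the 15150 genes tested, against the mean of the 2 group means in log2 intensity. Grey points are not called, orange points are called with overlapping arrays, and purple points are called with no overlap; the called points reach 3.18 upward (Prtn3) and -4.74 downward (Jchain), and those below 0 crowd the lower left edge that the floor of 5 sets.

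The tumor rises were led by genes of unlike function. Prtn3 encodes proteinase 3, a serine protease stored in neutrophil granules. Its 4 hyperplasia arrays read 5.00, 6.12, 5.74 and 7.35, and the tumors ran from 7.37 to 10.82 (median 9.54). The groups did not overlap (difference 3.18 ± 0.53, limma adjusted p = 9.55e-05). Other neutrophil granule genes did not move with it: Elane, encoding neutrophil elastase, had a difference of 0.02, the myeloperoxidase gene Mpo of -0.28 and the cathelicidin gene Camp of -0.10, and Prtn3 was the only call among 15 such genes tested. The calgranulin genes S100a8 and S100a9, expressed by neutrophils and by stressed epithelium, had differences of 1.07 ± 0.87 and 1.85 ± 0.90 and were not called.

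Car12, a membrane carbonic anhydrase that works on the outer face of epithelial cells, had the widest gap of any rise. Hyperplasia arrays read 5.00, 5.24, 5.00 and 5.47, at or close to the floor, whereas tumors ran from 6.89 to 10.26 (median 8.11). Its difference was 3.00 ± 0.61 (limma adjusted p = 0.00153). Car9, the carbonic anhydrase induced by low oxygen, also had tumor arrays that lay above every hyperplasia array, but its difference of 1.12 ± 0.47 was not called (adjusted p = 0.181). The other 11 carbonic anhydrases tested were not called.

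Rnf128, which encodes a membrane ubiquitin ligase known from T cell anergy, rose by 2.74 ± 0.44 (limma adjusted p = 4.21e-05). Hyperplasia replicate 1 was lowest at 5.09 and the other 3 hyperplasia arrays lay between 6.89 and 7.47, and the tumors ran from 8.25 to 10.56 (median 9.43). A second probe set of Rnf128 was also called, at 2.01 ± 0.42. Phlda3, a p53-induced inhibitor of Akt membrane binding, read 7.17, 7.75, 7.67 and 7.98 in hyperplasia and 8.77 to 11.23 (median 10.27) in tumors, with no overlap (difference 2.34 ± 0.40, adjusted p = 0.000118). The fetal growth factor gene Igf2 read 8.19, 8.84, 9.15 and 9.17 in hyperplasia and 10.08 to 13.39 (median 11.29) in tumors. Tumor 6 held the highest Igf2 level and tumor 4 the lowest, and the difference was 2.44 ± 0.69 (adjusted p = 0.0312); a dimmer second probe set had 1.40 ± 0.68 and was not called. Ddr1, an epithelial receptor tyrosine kinase that binds collagen, read 5.88, 7.19, 8.31 and 8.71 in hyperplasia, a wide spread, and 8.97 to 10.79 (median 9.84) in tumors (difference 2.22 ± 0.38, adjusted p = 0.000139). Of its 7 further probe sets 3 were called in the same direction, with differences from 1.38 to 2.03.

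**Figure D2:**
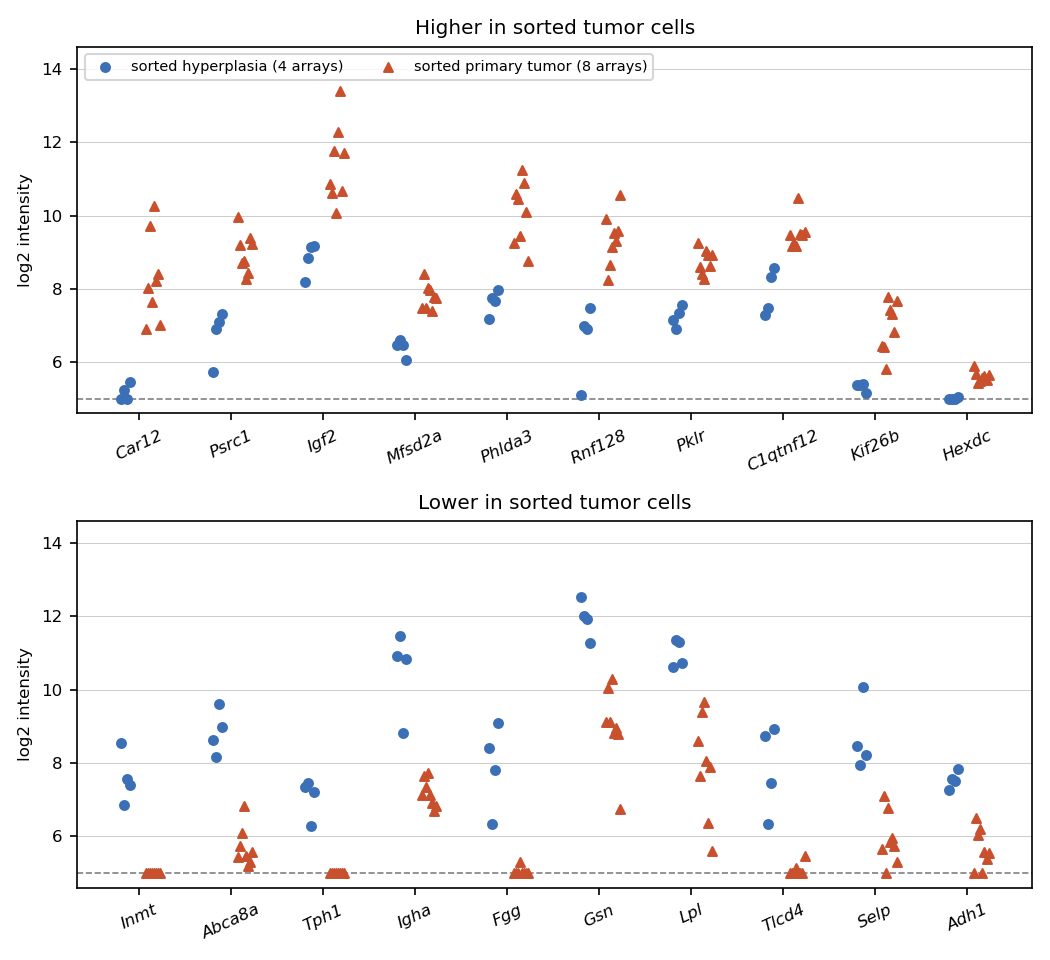
Log2 intensity on each of the 4 sorted hyperplasia arrays (blue circles) and 8 sorted primary tumor arrays (red triangles) for the 10 called genes in each direction with the widest gap between groups; the dashed line is the floor of 5. No gene shown has overlapping groups, Car12 runs from 6.89 in tumors where hyperplasia ends at 5.47, and Inmt and Tph1 lie on the floor in all 8 tumors.

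Matrix genes best known from cartilage were among the rises, with 2 of 18 called higher against 1.29% of all genes. Col9a3, a chain of collagen IX, read 5.21, 5.42, 6.39 and 6.34 in hyperplasia and 6.75 to 9.96 (median 8.93) in tumors (difference 2.83 ± 0.57, limma adjusted p = 0.00147), and all 3 of its probe sets were called higher. Mia, a small protein secreted by chondrocytes and melanoma cells, had a difference of 2.37 ± 0.55 (adjusted p = 0.00634), with the lowest tumor at 6.90 and the highest hyperplasia array at 7.05. The remaining 16 cartilage-type genes were not called, including Col9a1 (0.62), Col11a1 (1.51), Acan (0.12) and the chondrocyte factor gene Sox9 (0.01). Without hyperplasia replicate 1 Mia was not called (adjusted p = 0.113). With spike-in signal as a covariate neither Col9a3 (limma adjusted p = 0.0526) nor Mia (0.165) was called.

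Psrc1, a microtubule-binding protein of the mitotic spindle, had no overlap between groups (8.99 ± 0.56 (SD, n = 8) against 6.76 ± 0.71 (n = 4), a difference of 2.23 ± 0.30, limma adjusted p = 1.35e-06). Its 2 other probe sets had differences of 0.31 and -0.18 and were not called, so the probe sets of this gene disagree. The same held for Pklr, the pyruvate kinase of liver and red cells, with 1.44 ± 0.32 for the probe set used (adjusted p = 0.00520) and -0.15 and -0.31 for 2 probe sets near the floor. It also held for Tgfa, an EGF receptor ligand, with 1.88 ± 0.51 (adjusted p = 0.0237) against 0.07 and 0.03 for the other 2. Further rises without overlap were Dmrta2, a transcription factor of neural development (2.07 ± 0.42), Phlda2, an imprinted restrainer of placental growth (1.78 ± 0.30), C1qtnf12, a secreted relative of adiponectin (1.56 ± 0.32), the kinesin family gene Kif26b (1.53 ± 0.41) and Mfsd2a, a lysophospholipid transporter (1.39 ± 0.38). Hexdc, a hexosaminidase gene, rose by only 0.63 ± 0.19 from hyperplasia arrays at or within 0.06 of the floor (adjusted p = 0.0497). Gpx2, a glutathione peroxidase of epithelia, rose by 2.47 ± 0.70 although tumor 8, at 5.03, lay within the hyperplasia range. Leaving out 1 array at a time ended the calls of Gpx2 (without hyperplasia replicate 1, 2, 3 or 4, highest adjusted p = 0.129), Igf2 (without hyperplasia replicate 1 or 2, or tumor replicate 8, highest adjusted p = 0.195) and Sel1l3 (without hyperplasia replicate 1, 2 or 3, or tumor replicate 6 or 8, highest adjusted p = 0.247). This also held for Mfsd2a (without hyperplasia replicate 1, 2 or 4, highest adjusted p = 0.0950), Kif26b (without hyperplasia replicate 1 or 2, or tumor replicate 8, highest adjusted p = 0.0853) and Hexdc (without hyperplasia replicate 1, 2, 3 or 4, or tumor replicate 1, 2, 3, 5, 6, 7 or 8, highest adjusted p = 0.191). So it was for Tgfa (without hyperplasia replicate 1 or 2, highest adjusted p = 0.216). With spike-in signal as a covariate, only Psrc1, Dmrta2 and Phlda2 stayed called among the genes of this paragraph.

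Epithelial genes were retained in both groups, and few moved. Of 23 epithelial identity genes 2 rose, against 1.29% of all genes, and none fell, the median difference was 0.51, and 21 of the 23 differences were positive. Dsp, the desmoplakin gene that anchors keratin filaments to desmosomes, read 8.09, 9.50, 10.27 and 9.34 in hyperplasia and 10.40 to 11.08 (median 10.70) in tumors and rose by 1.36 ± 0.31 (limma adjusted p = 0.00593). Hyperplasia replicate 1 was the lowest of its group, and the groups did not overlap. Jup, the plakoglobin gene of the same junctions, rose by 1.08 ± 0.29 (adjusted p = 0.0233) with overlapping arrays. The luminal keratin genes Krt8 (0.04 ± 0.31) and Krt18 (-0.19 ± 0.34), Epcam (0.49 ± 0.32) and the E-cadherin gene Cdh1 (0.33 ± 0.30) were not called, and each of these 4 differences changes sign under at least 1 other processing setting. The mean of the 23 genes lay at 8.12 to 9.57 in hyperplasia and at 8.83 to 10.12 in tumors. Hyperplasia replicates 1 and 2 were the lowest of all 12 arrays in that mean, at 8.12 and 8.61. None of the 23 was called without hyperplasia replicates 1 and 2 together, or with spike-in signal as a covariate. Calls lost when 1 array was left out were those of Dsp (without hyperplasia replicate 1, adjusted p = 0.163) and Jup (without hyperplasia replicate 1 or 2, highest adjusted p = 0.267).

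Basal genes had large differences but wide spread. Of 14 basal keratin and p63 genes 1 rose and none fell, against 1.29% of all genes called higher and 2.50% called lower. The median difference was 1.63, against 0.01 over all genes. The call was Cdh3, the P-cadherin gene of basal epithelium. It read 5.00, 5.18, 5.71 and 5.80 in hyperplasia and 5.67 to 8.66 (median 7.48) in tumors, with tumors 8 and 4 lowest (difference 1.73 ± 0.47, limma adjusted p = 0.0228). Krt17 had 2.94 ± 1.08 (adjusted p = 0.118), Krt5 2.19 ± 1.07 (0.277), the hemidesmosome genes Col17a1 1.98 ± 0.93 (0.252) and Itgb4 1.82 ± 0.60 (0.0725), and Krt14 1.80 ± 0.66 (0.119). Krt5 lay at 7.02 to 8.46 in hyperplasia, while single tumors ran from 5.89 (tumor 8) and 8.19 (tumor 1) to 12.29 (tumor 2). The 3 tumors of 1 mouse had Krt5 levels of 12.02, 9.87 and 11.49. None of the 14 basal genes was called in the 3 sorted groups, in the 2 groups alone or with the spike-in covariate. Without hyperplasia replicates 1 and 2 together none was called either. On arrays with a Gapdh ratio below -0.1 the count was 1, and without tumor 4 it was 2. Contractile genes of myoepithelium did not follow the keratins: of 12 tested, the smooth muscle myosin gene Myh11 fell by 2.02 ± 0.54 on the log2 scale, Smtn, the smoothelin gene, rose by 1.32 ± 0.35, and Acta2 had -0.48 ± 0.28. Calls not kept with 1 array left out were Cdh3 (without hyperplasia replicate 1 or 2, highest adjusted p = 0.155), Myh11 (without hyperplasia replicate 1, 3 or 4, highest adjusted p = 0.0658) and Smtn (without hyperplasia replicate 1 or 2, highest adjusted p = 0.153).

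Genes of glycolysis and the low oxygen response had positive differences in 24 of 26 cases, with a median of 0.56, and 5 of the 26 rose while none fell. Over all genes 51.3% of differences were positive and 1.29% were called higher. Tpi1, the triosephosphate isomerase gene, read 9.06, 9.40, 9.54 and 10.15 in hyperplasia and 10.29 to 11.26 (median 10.67) in tumors. The groups did not overlap and the difference was 1.13 ± 0.23 (limma adjusted p = 0.00153); all 3 probe sets of Tpi1 were called higher. Pkm, the pyruvate kinase of growing tissue, read 10.23, 10.37, 10.20 and 10.84 in hyperplasia and 11.13 to 12.12 (median 11.52) in tumors, also without overlap (1.08 ± 0.25, adjusted p = 0.00742). The phosphoglycerate mutase gene Pgam1 rose by 0.92 ± 0.22, the pyruvate dehydrogenase kinase gene Pdk1 by 1.29 ± 0.35 and the oxygen sensor gene Egln1 by 0.94 ± 0.24. On tumor 2 both Pdk1 (7.21) and Egln1 (7.43) lay within the hyperplasia range. The glucose transporter gene Slc2a1 (0.80 ± 0.40, adjusted p = 0.284), Vegfa (1.12 ± 0.47, 0.186), Pfkl (1.41 ± 0.47, 0.0798) and Ldha (0.16 ± 0.21, 0.743) were not called. The list mean lay at 8.35 to 8.79 in hyperplasia and at 8.81 to 9.78 in tumors, so every tumor lay above every hyperplasia array in the mean. Only Tpi1 kept its call in a fit of the 3 sorted groups alone, and none of the 5 kept it without hyperplasia replicates 1 and 2 together. None of the 26 was called with spike-in signal as a covariate. With single arrays left out, calls ended for Pkm (without hyperplasia replicate 1, adjusted p = 0.0546), Pgam1 (without hyperplasia replicate 1, adjusted p = 0.109) and Pdk1 (without hyperplasia replicate 1 or 2, highest adjusted p = 0.287). Likewise lost were those of Egln1 (without hyperplasia replicate 1 or 2, highest adjusted p = 0.114).

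**Figure D3:**
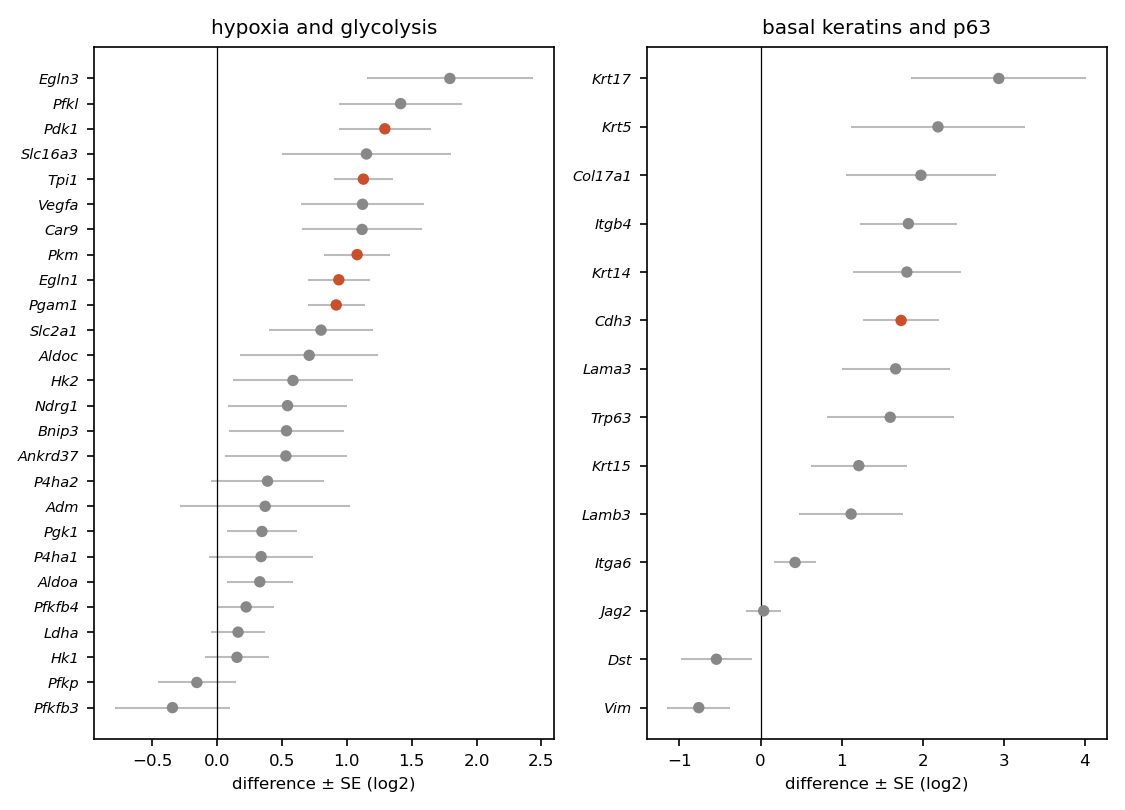
Fitted log2 difference ± SE, tumor minus hyperplasia, of each tested member of the glycolysis and low oxygen list (left, 26 genes) and of the basal keratin list (right, 14 genes); red points are called and grey points are not. On the left 24 points lie right of 0 and 5 are called; on the right Krt17 and Krt5 have the largest differences and the widest errors, and Cdh3 is the only call.

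Lipid, redox and stress genes gave few calls, set here against 1.29% of all genes called higher and 2.50% called lower. The citrate carrier gene Slc25a1 rose by 0.85 ± 0.17 (limma adjusted p = 0.00120), the only call among 22 fatty acid synthesis genes, with Fasn at 0.52 ± 0.30. Sqle, the squalene epoxidase gene, rose by 1.32 ± 0.37, the only call among 20 cholesterol genes. Of 27 NRF2 and glutathione genes Gpx2 and the glutathione synthetase gene Gss (0.88 ± 0.22) rose, and Gclc, the catalytic subunit for the first step of glutathione synthesis, fell by 1.62 ± 0.34 (adjusted p = 0.00253); its partner Gclm had 0.49 ± 0.22 and was not called. Gclc read 10.21, 9.40, 8.85 and 9.79 in hyperplasia and 7.02 to 8.89 (median 7.93) in tumors, so the groups overlapped narrowly. Hspb1, a small heat shock protein of epithelium, rose by 1.48 ± 0.44 as the only call among 14 cytosolic heat shock genes. Of 26 p53 target genes Phlda3 alone was called: the cell cycle inhibitor gene Cdkn1a had 0.39 ± 0.43, Mdm2 -0.42 ± 0.23, Ccng1 0.29 ± 0.29 and the desmosome-linked Perp 1.89 ± 0.67. Calls lost without 1 array were Sqle (without hyperplasia replicate 1 or 2, or tumor replicate 1, highest adjusted p = 0.364), Gss (without hyperplasia replicate 1, adjusted p = 0.401) and Hspb1 (without hyperplasia replicate 1, 2, 3 or 4, or tumor replicate 1, 3, 5 or 6, highest adjusted p = 0.126).

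No gene of the mitosis, DNA replication or cyclin lists was called. Of 31 mitosis genes none passed the test in either direction and the median difference was 0.02, and none of 27 DNA replication genes or of 21 cyclin, kinase and Myc family genes passed. Mki67, the Ki-67 gene, read 9.14, 9.19, 9.01 and 8.94 in hyperplasia and 7.30 to 8.89 (median 8.50) in tumors. All 8 tumors lay below all 4 hyperplasia arrays, yet the difference of -0.82 ± 0.37 was not called (limma adjusted p = 0.230). Ccnd1, the cyclin D1 gene, had 0.77 ± 0.48 (adjusted p = 0.418) and Myc 0.16 ± 0.29. Of 27 AP-1 and immediate early genes none was called: Fos, at 12.37 to 13.03 in hyperplasia and 12.44 to 12.98 in tumors, had -0.16 ± 0.49, Jun -0.25 ± 0.29 and Junb -0.28 ± 0.31. The same was so for 19 RAS-MAPK feedback genes, among them Etv5 (1.33 ± 0.45, adjusted p = 0.0820) and Dusp6 (0.88 ± 0.33, 0.130). The fusion partners Etv6 (-0.06 ± 0.31, adjusted p = 0.955) and Ntrk3 (0.23 ± 0.29, 0.735) were not called either. Whether these probe sets read transcripts of the knock-in allele was not tested. Another, dim probe set of Ntrk3 was lower in tumors (-0.42 ± 0.10, adjusted p = 0.0122 over all probe sets), so probe sets of Ntrk3 disagree. At an unadjusted p under 0.05, 2659 genes of the whole table passed.

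Milk and hormone response genes changed one by one. Wap, whose promoter drives the Cre in this model, read 10.94, 9.11, 11.16 and 11.56 in hyperplasia and 5.95 to 11.95 (median 7.16) in tumors. Tumor 7 (11.95) lay above all 4 hyperplasia arrays while tumors 2, 4 and 6 lay below 7, and the difference was -3.08 ± 0.77 (limma adjusted p = 0.0127). The beta-casein gene Csn2 was near the top of the intensity range in both groups, at 13.06 to 13.45 and 12.43 to 13.48, with -0.20 ± 0.45. Wap was the only call among 15 milk genes, where Glycam1 had -2.74 ± 1.55 (adjusted p = 0.360) and Btn1a1 -1.01 ± 0.82. Cited1, a transcription cofactor of hormone-sensing luminal cells, was at the floor in all 8 tumors and at least 2.37-fold lower there (adjusted p = 0.00138), and 1 of the 4 hyperplasia arrays was also at the floor. The progesterone receptor gene Pgr had -1.06 ± 0.36 (adjusted p = 0.0820), which passed without tumor replicate 3 (adjusted p = 0.0343). The estrogen receptor gene Esr1 (-0.33 ± 0.37) and the alveolar regulator Elf5 (-0.55 ± 0.56) were not called. The call lost without 1 array was that of Wap (without hyperplasia replicate 1, adjusted p = 0.0724).

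Among the named genes that fell, the widest gaps between groups were those of Inmt (1.86), Abca8a (1.34) and Tph1 (1.28). Abca8a was above the floor in all 8 tumors, and the other 2 were not in any. Inmt encodes indolethylamine N-methyltransferase, which methylates tryptamine and related amines. Hyperplasia arrays read 8.54, 6.86, 7.56 and 7.40, all 8 tumors were at the floor, and the level was at least 6.01-fold lower in tumors (limma adjusted p = 2.26e-19). Tph1, the rate-limiting enzyme of serotonin synthesis outside the brain, read 7.36, 7.46, 6.28 and 7.21 in hyperplasia and was at the floor in all 8 tumors, at least 4.22-fold lower (adjusted p = 5.47e-13). Inmt was at 8.36 ± 0.35 (SD, n = 5) and Tph1 at 7.09 ± 0.73 in wild-type glands, and sorted transplanted tumors had 5.00 ± 0.00 and 5.00 ± 0.00 (n = 7). Arrays clipped to the floor add no spread, which narrows the pooled SE of these genes and of others at the floor in most groups. That SE was 0.14 for Inmt and 0.17 for Tph1, while their hyperplasia SD was 0.70 and 0.54. In the fit of the 2 groups alone, which still holds the 8 tumors at the floor, limma adjusted p was 0.00112 for each. The lipid transporter gene Abca8a read 8.61, 8.17, 9.61 and 8.97 in hyperplasia and 5.18 to 6.83 (median 5.51) in tumors and fell by 3.06 ± 0.22 (adjusted p = 1.46e-14). Tumor 4 was the highest tumor for Abca8a, and without it Abca8a fell by 3.23 on the log2 scale.

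More falls without overlap covered secreted, lipid and detoxifying proteins. The fibrinogen chain gene Fgg read 8.40, 6.35, 7.80 and 9.10 in hyperplasia, while only 1 of 8 tumors, replicate 4, was above the floor at 5.29 (difference -2.86 ± 0.38, limma adjusted p = 1.35e-06). Tlcd4, a membrane protein gene, read 8.75, 6.34, 7.44 and 8.93 and stayed at or below 5.47 in tumors (-2.77 ± 0.41). Gsn, which encodes the actin-severing protein gelsolin, was bright in hyperplasia at 12.53, 12.01, 11.93 and 11.28 and ran from 6.75 to 10.30 (median 9.04) in tumors. Tumor 8 was lowest and tumor 4 highest, and all 4 Gsn probe sets that passed the filter on dim signals were called lower, with differences from -2.89 to -3.13. Adh1, an alcohol dehydrogenase gene, fell by 1.82 ± 0.24. Lpl, the lipoprotein lipase gene of fat and secretory mammary cells, read 10.61, 11.37, 11.30 and 10.73 in hyperplasia and 5.59 to 9.66 (median 7.97) in tumors (difference -2.91 ± 0.63, adjusted p = 0.00342).

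Across all 30 other settings 8 genes stayed called, and all 8 were lower in tumors: Inmt, Tph1, Abca8a, Fgg, Tlcd4, Igha, Enpep and P2ry10. Inmt and Tph1 were above the floor in 0 of 8 tumors, Fgg, Enpep and P2ry10 in 1 and Tlcd4 in 2. Abca8a and Igha were above it in all 8. Enpep, which encodes the peptidase aminopeptidase A, fell by 2.62 ± 0.21 (limma adjusted p = 5.14e-13), and P2ry10, a receptor gene of lymphocytes, fell by 2.28 ± 0.28 (adjusted p = 2.97e-07). Both fall outside the naming rule and were chosen after their values were seen. Tumor arrays at the floor narrow these SEs, while the hyperplasia SD was 0.67 for Enpep and 1.04 for P2ry10. The only tumor above the floor was replicate 4 for each. A fit of the 2 groups alone, with the spread taken from these 12 arrays, called 13 genes (0.0864%), 1 higher (0.00665%) and 12 lower (0.0798%). The higher call was Pklr. With array weights per group 242 genes were called (1.60%), 60 higher (0.396%) and 182 lower (1.20%). Without hyperplasia replicates 1 and 2 together 84 were called (0.554%), 7 higher (0.0462%) and 77 lower (0.508%). A fit of the 3 sorted groups called 17 higher (0.113%) and 50 lower (0.331%), and 66 of these 67 were also called in the fit of all groups.

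**Figure D4:**
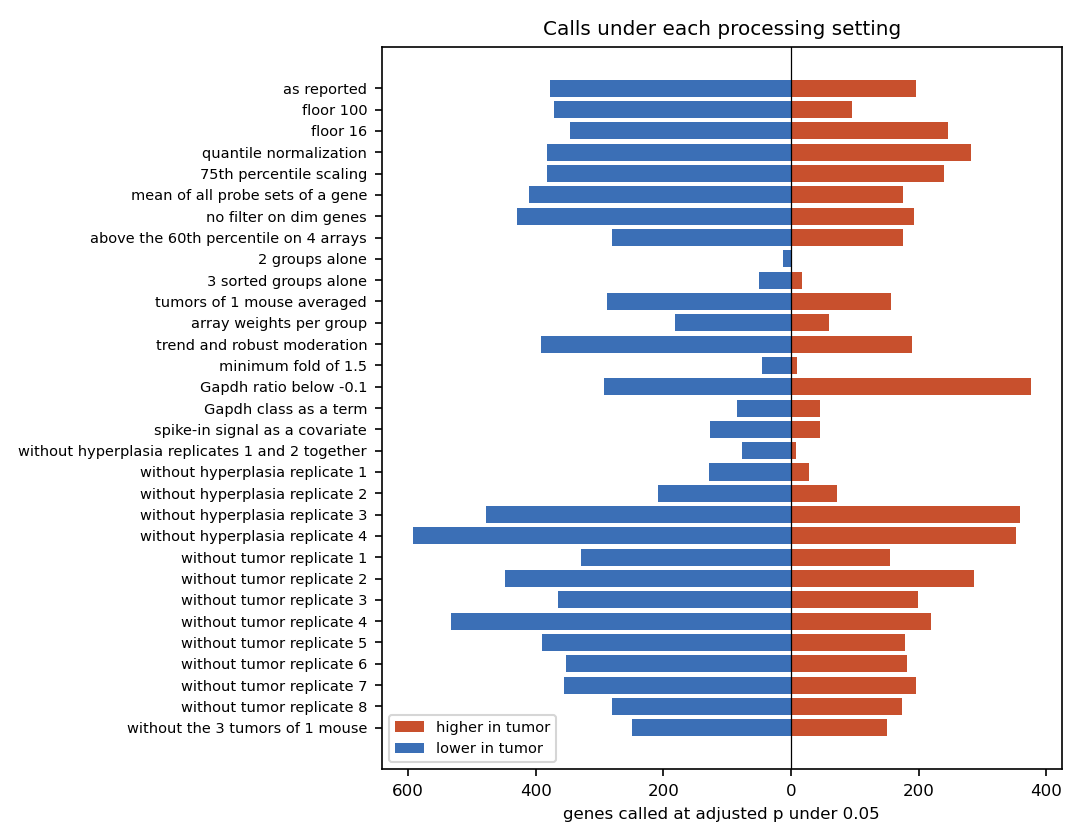
Number of genes called at adjusted p under 0.05, higher (red, to the right) and lower (blue, to the left) in tumor, as reported and under each of the 30 other settings. Lower calls outnumber higher calls in all bars but the 1 restricted to arrays with a Gapdh ratio below -0.1 (1.93% of genes lower and 2.48% higher), and the fit of the 2 groups alone leaves 1 and 12.

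Among lists, immunoglobulin genes had the highest share of calls. All 8 immunoglobulin chain genes tested, which antibody-secreting plasma cells express, were lower in tumors, with a median difference of -3.49. Of all genes 2.50% were called lower, against which this count and those of the cell type lists that follow are to be read. Fewer chain genes were called without hyperplasia replicates 1 and 2 together (3 of 8, median -2.04), in a fit of the 3 sorted groups (4) and in a fit of the 2 groups alone (1). Igha, the IgA heavy chain gene, read 10.91, 11.46, 8.83 and 10.85 in hyperplasia and 6.68 to 7.72 (median 7.13) in tumors without overlap (-3.31 ± 0.36, limma adjusted p = 1.10e-08). Jchain, which joins IgA and IgM into polymers, read 12.21, 13.20, 8.85 and 11.53 in hyperplasia and 5.00 to 9.58 (median 6.31) in tumors (-4.74 ± 0.81, adjusted p = 0.000125). Hyperplasia replicate 3 was the lowest of its group in each of Igha, Jchain and Ighm, and tumor 4 was the highest tumor in each. In Igk hyperplasia replicate 3 was at the floor and the other 3 read 8.79 to 12.22, whereas 7 of 8 tumors were at the floor. The list mean was 7.23 to 12.21 in hyperplasia and 5.65 to 8.28 in tumors, so the groups overlapped through hyperplasia replicate 3 and tumor 4. Of 17 B and plasma cell genes, 2 of which are also in the chain list, 6 fell: besides Ighm and Jchain these were Mzb1, an endoplasmic reticulum protein of plasma cells (-2.31 ± 0.48), the CD20 gene Ms4a1 (-1.81 ± 0.45), and the B cell receptor genes Cd79a (-1.39 ± 0.30) and Cd79b. None of the 17 was called without hyperplasia replicates 1 and 2 together or in the 2 groups alone, and 1 was called in the 3 sorted groups and when spike-in signal was a covariate. Wild-type glands had Igha at 8.75 ± 0.75 (SD, n = 5) and sorted transplants at 7.03 ± 0.10 (n = 7). Fewer cells of a type and less RNA per cell cannot be told apart in these bulk samples, here or in the cell type lists that follow.

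T and NK cell genes were lower in 5 of 15 cases, against 2.50% of all genes, and higher in none (median -0.68). In the 3 sorted groups 1 of the 15 was called and in the 2 groups alone none. The costimulatory receptor gene Cd28 read 8.61, 7.61, 5.18 and 6.46 in hyperplasia, was at the floor in all 8 tumors and was at least 3.91-fold lower (limma adjusted p = 1.01e-05). Cd28 was also at 5.00 ± 0.00 in unsorted primary (SD, n = 22) and unsorted transplanted (n = 4) tumors. Arrays at the floor narrow its SE, which was 0.29 against a hyperplasia SD of 1.48. In the 2 groups alone its limma adjusted p was 0.203. Cd3d, a chain of the T cell receptor complex, had -1.49 ± 0.28, Cd5 -0.81 ± 0.16, Cd8b1 -0.63 ± 0.15 and the cytotoxic granule gene Nkg7 -0.92 ± 0.28. In each of these 5 genes hyperplasia replicate 1 was highest and replicate 3 or 4 lowest. The spike-in signal was also highest on hyperplasia replicate 1. With that signal as a covariate Cd28 (-1.40, adjusted p = 0.00141) and Cd5 (-0.61, 0.0409) stayed called, and Cd3d (-0.94, 0.0583), Cd8b1 (-0.28, 0.256) and Nkg7 (-0.56, 0.372) did not. Cd8b1 was at the floor on hyperplasia replicates 3 and 4, and its difference was 0.03 without replicates 1 and 2, where none of the 15 T and NK genes was called. Calls ended by leaving out 1 array were Mzb1 (without hyperplasia replicate 2, adjusted p = 0.0618), Ms4a1 (without hyperplasia replicate 1 or 2, highest adjusted p = 0.206) and Cd79a (without hyperplasia replicate 1, adjusted p = 0.0942). Likewise lost were those of Nkg7 (without hyperplasia replicate 1 or 2, or tumor replicate 1, 2, 4, 6 or 7, highest adjusted p = 0.420), Cd5 (without hyperplasia replicate 1, adjusted p = 0.0516) and Cd8b1 (without hyperplasia replicate 1 or 2, highest adjusted p = 0.321).

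Macrophage genes were lower in 3 of 24 cases and alternatively activated macrophage genes in 5 of 10, with none higher and medians of -1.22 and -1.83. Retnla, a secreted product of such macrophages and of fat, read 12.91, 13.05, 12.72 and 12.29 in hyperplasia, tightly grouped, and 5.00 to 11.95 (median 7.43) in tumors. Tumors 4 (11.95) and 2 (11.34) were close to hyperplasia and tumor 8 was at the floor (difference -4.59 ± 1.18, limma adjusted p = 0.0162). The lectin genes Mgl2 (-3.09 ± 0.50) and Clec10a (-2.74 ± 0.61), the folate receptor gene Folr2 (-1.77 ± 0.47) and Cd209d (-1.89 ± 0.39) fell as well, and Mgl2 did so without overlap (6.52 ± 1.40 (SD, n = 8) against 9.75 ± 0.73 (n = 4)). The 3 calls among the 24 macrophage genes were Itgam (-1.13 ± 0.33), Cd209f (-1.45 ± 0.38) and Lyve1 (-2.23 ± 0.54). Only 1 of the 24 differences was positive. Other general macrophage genes had negative differences with wide errors and were not called. Csf1r had -1.56 ± 0.71 (adjusted p = 0.232), Cd68 -1.43 ± 0.51 (0.108), Adgre1 -1.13 ± 0.48 (0.193) and Lyz2 -1.85 ± 0.70 (0.132). Arg1, an arginase gene of the same activation state, ran the other way at 1.78 ± 0.66 and was not called. The mean of the 24 genes was 9.54 to 10.53 in hyperplasia and 7.05 to 10.24 in tumors, so every sorted tumor carried macrophage transcripts well above the floor. Without tumor 4 the counts were 5 of 24 and 7 of 10. Without hyperplasia replicates 1 and 2 together, and in the 3 sorted groups or the 2 groups alone, no member of either list was called, and the median of the alternatively activated list was -0.84 without those replicates. With the spike-in covariate the counts were 0 of 24 and 1 of 10. Of 9 MHC class II genes the peptide-loading regulators H2-Oa (-0.62 ± 0.16) and H2-Ob fell. H2-Ob was at the floor in all tumors and at least 1.79-fold lower (adjusted p = 0.0124). Neither was called without hyperplasia replicates 1 and 2 together, in the 2 groups alone or with the spike-in covariate. Calls that rested on 1 array were Retnla (without hyperplasia replicate 1 or 2, highest adjusted p = 0.0805), Clec10a (without hyperplasia replicate 1, adjusted p = 0.0811) and Folr2 (without hyperplasia replicate 1 or 2, or tumor replicate 8, highest adjusted p = 0.320). This also held for Cd209d (without hyperplasia replicate 1, adjusted p = 0.0853), Lyve1 (without hyperplasia replicate 1 or 2, highest adjusted p = 0.169) and Cd209f (without hyperplasia replicate 1, adjusted p = 0.169). So it was for Itgam (without hyperplasia replicate 1, 2 or 4, or tumor replicate 1, 6, 7 or 8, highest adjusted p = 0.217), H2-Ob (without hyperplasia replicate 1 or 2, highest adjusted p = 0.158) and H2-Oa (without hyperplasia replicate 2, adjusted p = 0.148).

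**Figure D5:**
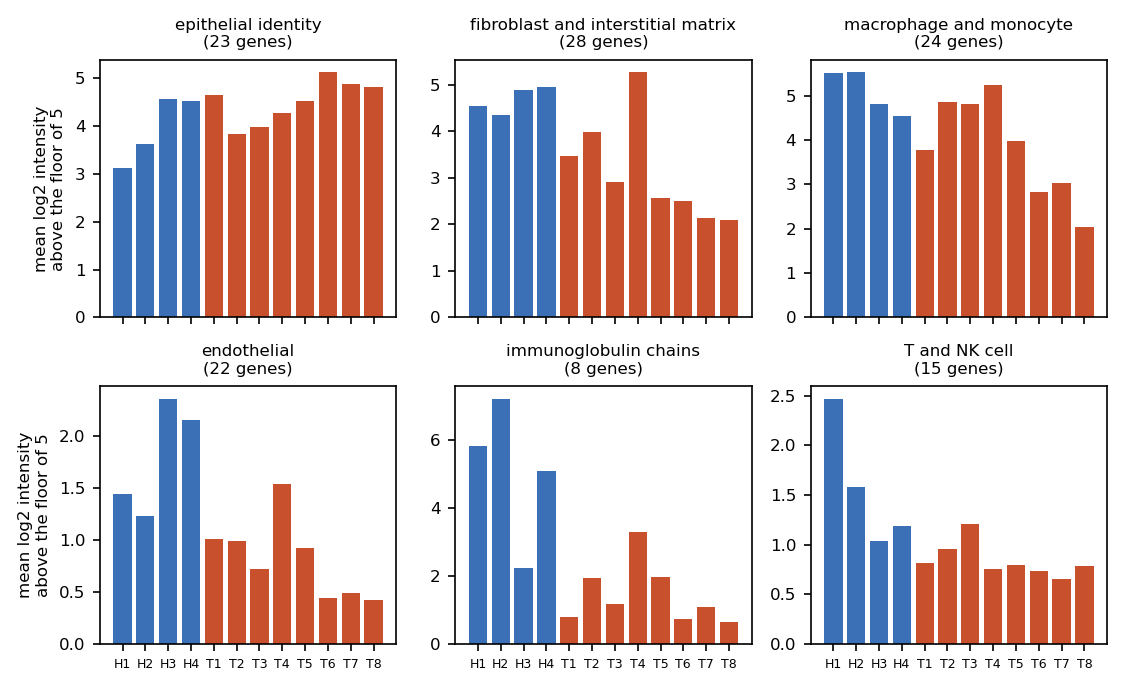
Mean log2 intensity above the floor of 5 for 6 cell type lists on each array, with hyperplasia replicates 1 to 4 (H1 to H4, blue) and tumor replicates 1 to 8 (T1 to T8, red); the vertical scale differs between panels. Epithelial genes are as high in tumors as in hyperplasia, tumor 4 stands out in the fibroblast panel at 5.27 above the floor, and the immunoglobulin panel has its lowest hyperplasia value on replicate 3.

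Endothelial genes were lower in 9 of 22 cases and higher in none, with a median difference of -0.83. Selp, the P-selectin gene that lets leukocytes roll on activated vessels, read 8.47, 7.94, 10.07 and 8.22 in hyperplasia and 5.00 to 7.11 (median 5.79) in tumors without overlap (difference -2.55 ± 0.52, limma adjusted p = 0.00154), and all 3 of its probe sets were called. Its neighbor on chromosome 1, the E-selectin gene Sele, read 5.65, 5.98, 7.75 and 6.10 in hyperplasia and was at the floor in all 8 tumors, at least 2.58-fold lower (adjusted p = 0.000342). Plvap, the diaphragm protein of fenestrated capillaries, fell by 1.61 ± 0.43, the angiopoietin receptor gene Tek fell by 1.57 ± 0.28, and Cd34 fell by 1.92 ± 0.44. The other 4 called members, named outside the naming rule after their values were seen, were the VEGF receptor gene Kdr (-0.98 ± 0.27), Esam (-1.32 ± 0.37), Ramp2 (-0.68 ± 0.20) and Icam2, which was at the floor in all tumors and at least 1.76-fold lower. Each of these 4 lost its call without at least 1 array (highest adjusted p = 0.157, 0.109, 0.136 and 0.287). The pan-endothelial genes Cdh5 (-0.82 ± 0.49, adjusted p = 0.383) and Pecam1 (adjusted p = 0.439) were not called. Pecam1 was at the floor in all tumors and at 5.28 ± 0.35 (SD, n = 4) in hyperplasia. Tumor 4 had Cd34 at 7.80 and Tek at 6.77, within or close to the hyperplasia range, and without it 11 of 22 were lower. Without hyperplasia replicates 1 and 2 together 8 of 22 were lower, against 6 with the spike-in covariate, 4 on arrays with a Gapdh ratio below -0.1, 2 in the 3 sorted groups and 0 in the 2 groups alone. Leaving out hyperplasia replicate 3 or 4 ended the call of Plvap (adjusted p up to 0.0814).

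Promoters of 4 called genes are shown because each holds a match to a loose AP-1-like element of 7 bases, TGANTCA, in capitals. N stands for any base, and no AP-1 subunit gene itself was called. The match is TGACTCA in Sele, TGATTCA in Selp and TGAGTCA in Mmp3 and Ddr1. With that base free, the shares given below also count sequences other than AP-1 sites. Sele, Selp and the stromelysin gene Mmp3 were lower and Ddr1 was higher in tumors. The element was also found in Il6, Folr2 and Cd209f, all called lower and not shown, so the higher direction rests here on Ddr1. Each sequence runs 5′ to 3′ on the gene's strand, from 250 bases before to 50 after the start site, as RefSeq lists it for GRCm38.p6; these 4 were chosen after their values were seen.
Sele, chr1:164047984-164048283, plus strand: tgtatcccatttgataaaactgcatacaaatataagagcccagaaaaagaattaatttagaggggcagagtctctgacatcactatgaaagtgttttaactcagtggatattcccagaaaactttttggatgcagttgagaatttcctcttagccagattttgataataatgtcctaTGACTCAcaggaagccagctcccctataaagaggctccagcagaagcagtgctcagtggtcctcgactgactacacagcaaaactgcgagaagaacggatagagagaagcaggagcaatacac
Selp, chr1:164115014-164115313, plus strand: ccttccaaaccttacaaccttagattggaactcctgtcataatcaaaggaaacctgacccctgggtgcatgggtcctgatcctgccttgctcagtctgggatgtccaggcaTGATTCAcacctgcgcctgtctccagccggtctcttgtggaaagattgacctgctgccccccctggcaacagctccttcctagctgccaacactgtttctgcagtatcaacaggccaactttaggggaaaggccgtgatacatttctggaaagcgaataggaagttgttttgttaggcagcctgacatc
Mmp3, chr9:7445572-7445871, plus strand: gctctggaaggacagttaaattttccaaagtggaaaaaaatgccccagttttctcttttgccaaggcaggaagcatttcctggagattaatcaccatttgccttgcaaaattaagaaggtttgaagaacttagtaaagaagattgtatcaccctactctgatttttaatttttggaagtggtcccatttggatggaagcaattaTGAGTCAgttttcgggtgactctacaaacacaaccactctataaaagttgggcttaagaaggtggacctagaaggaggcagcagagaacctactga
Ddr1, chr17:35701995-35702294, minus strand: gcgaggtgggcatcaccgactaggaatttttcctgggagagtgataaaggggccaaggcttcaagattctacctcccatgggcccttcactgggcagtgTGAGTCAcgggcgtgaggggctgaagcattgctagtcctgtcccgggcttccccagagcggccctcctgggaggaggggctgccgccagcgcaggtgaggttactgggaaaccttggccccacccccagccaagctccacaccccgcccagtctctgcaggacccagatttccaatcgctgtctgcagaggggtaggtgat
The element starts 73 bases before the start site in Sele, 139 before it in Selp, 46 in Mmp3 and 151 in Ddr1. Searched on both strands (it is its own reverse complement at the fixed letters), TGANTCA was present in 33 of 356 promoters of genes called lower (9.27%), in 9 of 215 of genes called higher (4.19%) and in 6.01% of the promoters of all genes tested. Over all 32851 promoters listed the share was 7.81%. A match is a description of letters and not a measured site of binding. Promoters were listed for 83 of the 115 named genes.

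Fibroblast and matrix genes were lower in 6 of 28 cases and higher in none, with a median of -1.40. Pdgfra, the growth factor receptor gene that marks fibroblasts, read 9.10, 8.85, 9.30 and 9.28 in hyperplasia. Of the tumors 7 ran from 5.70 to 6.70 and tumor 4 read 9.28 (difference -2.38 ± 0.47, limma adjusted p = 0.000985). Dpt, the dermatopontin gene, read 11.04, 10.01, 10.25 and 10.81 in hyperplasia and 6.07 to 10.90 (median 6.47) in tumors, and the proteoglycan gene Lum 9.84, 9.21, 10.38 and 10.59 and 5.64 to 9.72 (median 6.39). Tumor 4 was again the highest tumor for Dpt (10.90) and Lum (9.72). Thy1 (-2.10 ± 0.56) and the IGF-binding protein gene Igfbp6 (-2.00 ± 0.39) fell, and Igfbp6 did so without overlap. The collagen genes Col1a1 (-1.07 ± 0.85, adjusted p = 0.549) and Col3a1 (-1.51 ± 0.81, 0.326) and the decorin gene Dcn (-3.45 ± 1.08, 0.0581) were not called. Without tumor 4, 12 of 28 fibroblast genes were lower. The count was 3 with the spike-in covariate, 2 without hyperplasia replicates 1 and 2 together, 1 in the 3 sorted groups and 0 in the 2 groups alone. Of 7 complement and serum protein genes C1s1 (-2.20 ± 0.49) and C1ra (-2.13 ± 0.53) fell, both of them proteases of the classical complement pathway, and without tumor 4 it was 4 of 7. With the spike-in covariate 1 of the 7 was called. None was called without hyperplasia replicates 1 and 2 together, in the 3 sorted groups, in the 2 groups alone or on arrays with a Gapdh ratio below -0.1. Of 18 basement membrane genes the laminin gene Lama2 alone fell (-1.78 ± 0.31), while Lama3 (1.67 ± 0.67) and Lamb3 (1.12 ± 0.64) of epithelial laminin were not called. Calls that 1 array ended were Dpt (without hyperplasia replicate 1, adjusted p = 0.0516), Lum (without hyperplasia replicate 1, adjusted p = 0.0538) and Thy1 (without hyperplasia replicate 1 or 2, or tumor replicate 8, highest adjusted p = 0.149). Likewise lost were those of C1ra (without hyperplasia replicate 1, adjusted p = 0.112).

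Fat cell genes were lower in 2 of 12 cases, against 2.50% of all genes. These were Lpl and the fatty acid carrier gene Fabp4, neither of them called without hyperplasia replicates 1 and 2 together or in the 3 sorted groups, and the list median was -0.32. Fabp4 read 10.43, 8.62, 11.05 and 10.26 in hyperplasia and 5.63 to 8.51 (median 6.10) in tumors (-3.24 ± 0.95, limma adjusted p = 0.0404). The adiponectin gene Adipoq, a defining marker of fat cells, was at the floor on all tumor arrays and at 5.44 ± 0.34 (SD, n = 4) in hyperplasia (adjusted p = 0.809). Car3, a carbonic anhydrase of fat, was also at the floor in all tumors, at 6.83 ± 0.58 in hyperplasia, and was not called (adjusted p = 0.303). Fabp4 lost its call without hyperplasia replicate 1, 3 or 4, or tumor replicate 1, 3, 7 or 8 (highest adjusted p = 0.187). Genes of skeletal muscle, red cells, pericytes, Schwann cells and mast cells gave no call in their 10, 4, 9, 8 and 7 members tested.

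Secreted signals, proteases and ETS factors followed, with each fall seen beside the stromal and immune lists. Their counts stand against 2.50% of all genes called lower. Of 31 cytokine and chemokine genes Il6 (-2.30 ± 0.57), the eotaxin gene Ccl11 (-2.20 ± 0.39) and Ccl5 (-2.18 ± 0.47) fell. Il6 read 10.36, 9.95, 10.79 and 8.83 in hyperplasia and 5.42 to 10.88 (median 7.21) in tumors, with tumor 4 the highest of all 12 arrays. Mmp3, a secreted protease of stroma, read 8.74, 9.07, 8.83 and 10.32 and 5.23 to 10.12 (median 5.71), again with tumor 4 highest among tumors (-2.67 ± 0.65, limma adjusted p = 0.0115), and Ctsk, the cathepsin K gene, had -2.47 ± 0.57. Of 21 ETS genes 3 fell: Spib, a factor of B cells and dendritic cells, without overlap (-1.53 ± 0.20), Fli1, a factor of endothelium and blood cells (-1.38 ± 0.39), and the repressor gene Etv3 (-1.14 ± 0.35). The epithelial ETS genes Ehf (0.44 ± 0.57) and Elf3 (0.97 ± 0.44) were not called. S100a4, a calcium-binding protein of fibroblasts and leukocytes, was the only call among 13 mesenchymal transition genes (-2.00 ± 0.57); Vim had -0.76 ± 0.39, Snai1 0.31 ± 0.35 and Zeb1 -0.18 ± 0.37. Tumor 4, highest among tumors for Il6 and Mmp3, also had the highest fibroblast list mean, and the part of stromal cells in these falls was not tested. Calls ended by 1 array were Il6 (without hyperplasia replicate 1, adjusted p = 0.0843), Ccl5 (without hyperplasia replicate 1, adjusted p = 0.0870) and Fli1 (without hyperplasia replicate 1 or 2, or tumor replicate 8, highest adjusted p = 0.211). This also held for Etv3 (without hyperplasia replicate 1 or 2, or tumor replicate 1, 3, 7 or 8, highest adjusted p = 0.293) and S100a4 (without hyperplasia replicate 1, 2 or 4, or tumor replicate 1, 6 or 8, highest adjusted p = 0.184).

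Growth and patterning pathways gave a few calls, to be read against 1.29% of all genes called higher and 2.50% called lower. Of 30 Wnt genes Lgr4, an R-spondin receptor gene, rose by 1.39 ± 0.40 and the receptor gene Fzd7 by 1.26 ± 0.37, while the ligand gene Rspo1 fell by 1.24 ± 0.34 on the log2 scale. Rspo1 was above 7 on hyperplasia replicate 3 alone (5.62, 5.49, 7.97 and 6.13). Axin2, a target gene of canonical Wnt signaling, had -0.22 ± 0.35 and was not called. Notch2 fell by 1.05 ± 0.29, the only call among 17 Notch genes, where Notch1 had 0.24 ± 0.41 and Hes1 -0.15 ± 0.34. Of 18 IGF axis genes Igf2 rose and Igfbp6 fell, and the receptor genes Igf1r (0.28 ± 0.37) and Igf2r (0.61 ± 0.34) were not called. Of 15 imprinted growth genes Igf2 and Phlda2 rose and Sgce fell by 1.13 ± 0.31; Sgce was within 0.06 across the hyperplasia arrays and spread over 5.36 to 7.76 in tumors. None of 25 TGF-beta and BMP genes was called, with Id4 at 2.49 ± 0.96 (limma adjusted p = 0.140) the largest difference among them. None of 25 interferon response genes was called either. Calls that did not outlast the loss of 1 array were Lgr4 (without hyperplasia replicate 1 or 2, or tumor replicate 3 or 8, highest adjusted p = 0.302), Fzd7 (without hyperplasia replicate 1 or 2, or tumor replicate 1, 3, 5, 6 or 8, highest adjusted p = 0.333) and Rspo1 (without hyperplasia replicate 3, adjusted p = 0.222). This also held for Notch2 (without hyperplasia replicate 1 or 2, or tumor replicate 1, highest adjusted p = 0.220) and Sgce (without hyperplasia replicate 1 or 2, highest adjusted p = 0.117).

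Levels in the other groups place these changes, with no test made. Prtn3 and Car12 were at 5.00 ± 0.00 and 5.04 ± 0.09 in wild-type glands (SD, n = 5), at 9.57 ± 0.94 and 8.39 ± 1.08 in unsorted primary tumors (n = 22, the repeat arrays of 1 tumor averaged) and at 9.24 ± 0.68 and 8.98 ± 0.92 in sorted transplants (n = 7). For Car12 hyperplasia lay near the gland and all tumor groups lay above it. For Prtn3 the hyperplasia arrays ran from the gland level of 5.00 up to 7.35, just below the lowest sorted primary tumor (7.37). Igf2 was at 8.12 ± 0.24 in glands, 11.85 ± 1.22 in unsorted tumors and 10.52 ± 1.19 in sorted transplants. Tpi1 was at 9.24 ± 0.56, 11.21 ± 0.40 and 10.59 ± 0.34 in the same groups. Krt5 was higher in glands (9.93 ± 0.33) than in sorted hyperplasia (7.02 to 8.46), and sorted transplants had 11.43 ± 1.58. Wap was at 6.24 ± 0.08 in glands and 7.58 ± 1.10 in unsorted tumors, both below sorted hyperplasia. Selp was at 11.26 ± 0.78 in glands, 5.23 ± 0.58 in unsorted tumors and 6.29 ± 1.59 in sorted transplants. Gsn was at 11.81 ± 0.46 in glands and 8.50 ± 0.75 in unsorted tumors, and Abca8a at 9.26 ± 0.28 and 5.26 ± 0.25, with hyperplasia near the gland and tumors below it for both genes.

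Other probe sets of the called genes were read as a check on the choice of 1 probe set per gene. Of 65 other probe sets of called named genes that passed the filter on dim signals 58 had the same sign, 32 were called in the same direction and 0 in the opposite direction. Of 32 called named genes with more than 1 such probe set, 17 had another that was called. Over all 55 lists, 35 had at least 1 called member and 20 had none. Of the 35, 28 had at least 1 call on arrays with a Gapdh ratio below -0.1 and 22 with the spike-in covariate. The count was 12 in the 3 sorted groups, 10 without hyperplasia replicates 1 and 2 together and 4 in the 2 groups alone. Such a call need not be of the same gene or in the same direction as the reported one.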

How the data were processed

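Total RNA was labelled with biotin and hybridized to Affymetrix mouse whole genome arrays, per the labels' protocols. The authors deposited linear intensities for 45101 probe sets, with 1 column for each array; their summarization and scaling methods are not given in the sources used. A probe set was dropped for 2 stray values. A floor of 32 replaced lower intensities (37.4% of values) before taking log2 of the deposited intensities, with the deposited scaling kept. Where a group sat at this floor throughout, the fold is given as a bound, the other group's mean over the floor. Symbols came from GEO's platform annotation, updated by Entrez identifier through RefSeq (GRCm38.p6), which matched 34740 probe sets; 34944 probe sets had 1 symbol, 932 several and 9160 no listed gene. Each gene was read by its brightest probe set, by mean over the arrays, and a gene was tested if above its array's 40th percentile on at least 4 arrays, 15150 of 18192.

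Groups came from sample titles, and replicate numbers follow accession order. All 6 groups (50 replicates) were fitted in limma 3.58.1 by lmFit and eBayes (R 4.3.3, with the data.table package, version 1.17.8). Mouse was a random block (duplicateCorrelation, 0.358), which weights mice, so that fitted differences and differences of means are not equal, and a pooled spread can understate that of the 2 groups compared. Technical measures were compared with exact two-sided permutation tests over 495 splits. Named genes were the 12 largest called rises and falls whose higher group's mean exceeded the median of all gene-level values, the 10 called genes in each direction with the widest gap between groups, up to 5 called members of each list, and 20 fixed genes; symbols without an established name were skipped. The members and 55 lists were chosen with earlier results of these data known. Genes named beside these are uncalled list members, or Cd79b, named after its values were seen, or are stated as chosen later. Alternatives changed the floor, scaling, probe set, filter, samples, weights, moderation, minimum fold, Gapdh class, spike-in signal and replicates. On values simulated for 15150 genes, 63% of 100 planted 2-fold and 94% of 100 planted 4-fold changes of this comparison were recovered, with 12 unchanged genes called. Changes were planted only in genes brighter than the median gene. The simulated noise had 1 spread per gene in all 6 groups, so error from unequal spread between groups was not covered. Promoter searches and plots used Python 3.11.15, pandas 2.3.3, numpy 2.4.6 and matplotlib 3.10.9.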

Additional observations from a re-analysis of the deposited data

Results flagged for a closer look

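In groups of 4 and 8 arrays, 24 of 230 sets of gene values held 1 array far from the rest of its group by Dixon's test at the 95% level, where chance gives about 1 in 20. Tumor replicate 4 was the high array in 8 of the 24: Pdgfra (9.28), Lyve1 (9.34), Iglv1 (8.59), Cd34 (7.80), Igkv6-14 (6.90), Tek (6.77), Ms4a1 (5.76) and Fgg (5.29). Among other tumors, replicate 5 was high in C1qtnf12 (10.49), Igk (5.86) and Rspo1 (5.68), replicate 7 in Myh11 (8.06), replicate 8 in Tlcd4 (5.47), replicate 1 in Spib (5.47) and replicate 3 in Cd8b1 (5.06). Tumor replicate 2 was low in Lgr4 (8.76), Egln1 (7.43) and Pdk1 (7.21). Tumor replicate 8 was low in Hspb1 (10.48) and in the gelsolin gene Gsn (6.75). In hyperplasia, replicate 4 was high in Dmrta2 (6.70) and Hexdc (5.06) and low in Kif26b (5.16), and replicate 3 was low in Igkv8-30 (9.78). Where the rest of a group sat at the floor of 5, as for Igk, Fgg and Cd8b1, a small value above it was enough.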

How the results depend on the processing

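Calls were more sensitive than directions. Over 30 alternatives for 115 named genes, 2705 results kept direction and side of the threshold, 709 of called genes lost the call, 1 gained it (Pgr) and 28 changed sign. Shares here are of the genes tested, against the reported 1.29% higher and 2.50% lower. A floor of 100 left 0.769% higher, 73 calls without overlap and 20.3% of calls higher. The 2 groups alone gave 13 calls (0.00665% higher, 0.0798% lower, all 13 without overlap), and the 3 sorted groups 67 (0.113% and 0.331%, 50 without overlap). Array weights per group gave 242 (0.396% and 1.20%, 71 without overlap), and a minimum fold of 1.5 gave 54 (0.0594% and 0.297%, 31 without overlap). Arrays with a Gapdh ratio below -0.1 gave 2.48% higher, 56.2% of calls, and 370 calls without overlap, where fewer arrays make overlap rarer. The Gapdh class as a term gave 129 (0.298% and 0.557%, 70 without overlap) and the spike-in covariate 173 (0.304% and 0.838%, 60 without overlap). Without hyperplasia replicates 1 and 2 together there were 84 (0.0462% and 0.508%, 71 without overlap), of which 6 higher and 66 lower were also reported calls, and 8 reported calls changed sign. Without the 3 tumors of 1 mouse, an alternative added after seeing the data, 1.64% were lower. Leaving out 1 array at a time gave 157 to 946 calls, 0.185% to 2.37% higher and 0.851% to 3.91% lower, with 63 to 298 without overlap. The cause of these changes was not tested. All other counts stayed within 1.5 times the reported ones.

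Sign changes among the 115 named genes, none of them called except Cd8b1 (0.032 without hyperplasia replicates 1 and 2), were as follows. With a floor of 100 Esr1 had 0.066, and with quantile normalization Krt18 had 0.025. With the mean of all probe sets Etv6 had 0.23 and Ntrk3 -0.052. With a Gapdh ratio below -0.1 Ntrk3 had -0.39, Krt8 -0.26, Myc -0.19 and Fos 0.0025. With the spike-in covariate Krt8 had -0.26, Epcam -0.075 and Cdh1 -0.031, and without hyperplasia replicates 1 and 2 Krt8 had -0.28, Epcam -0.024 and Cdh1 -0.23. Krt8 had -0.025 in the 2 groups alone, -0.046 with tumors of 1 mouse averaged, -0.067 with the Gapdh term and -0.20 without the 3 tumors of 1 mouse. With 1 array left out Krt8 ran from -0.15 (without hyperplasia replicate 1) to 0.21 and had -0.0093, -0.019, -0.0042 and -0.011 without tumor replicates 1, 6, 7 and 8. Etv6 ran from -0.22 to 0.12 and Myc from -0.13 (without hyperplasia replicate 4) to 0.39; Etv6 was positive without tumor replicate 2 or 5 (0.036) or hyperplasia replicate 4. No paired analysis was possible because the labels of these 2 groups give no replicate numbers and no mouse gave both a hyperplasia and a tumor array. Intensities near the floor carry no order, which limits dim genes; with genes at the floor throughout a group set at their bound, list medians moved by at most 0.075.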

Other observations

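The 66 genes called both in the fit of all groups and in the fit of the 3 sorted groups alone hold some that no list covered, chosen here after their values were seen. Among the 17 higher ones, Pkp1, the plakophilin gene of desmosomes, rose by 1.95 ± 0.52 (limma adjusted p = 0.0198; 9.82 ± 0.87 (SD, n = 8) against 7.79 ± 0.33 (n = 4)). Lad1, a filament protein of the epithelial basement membrane zone, rose by 1.46 ± 0.27 and had levels of 9.87 ± 0.44 (SD, n = 8) against 8.39 ± 0.59 (n = 4). Irx5, a homeobox gene, rose by 1.56 ± 0.31, Kctd15 by 1.69 ± 0.36 and the merlin gene Nf2, a regulator of Hippo signaling, by 1.08 ± 0.20. All 5 had tumor arrays wholly above the hyperplasia arrays.

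On the lower side stood 2 genes tied to angiotensin II, and the angiotensin system as a whole was not tested. Enpep was above the floor of 5 in 1 of 8 tumors, and Agtr1a averaged 5.18 there. Enpep encodes a peptidase that cleaves angiotensin II, and Agtr1a encodes a receptor for that peptide. Agtr1a had a level of 5.18 ± 0.52 (SD, n = 8) against 7.69 ± 1.09 (n = 4), a difference of -2.44 ± 0.36 (limma adjusted p = 8.27e-06) and no overlap between groups. Hsd11b1, which reactivates glucocorticoids, had -2.78 ± 0.49, and Ackr1, a chemokine-binding receptor of venules, -1.23 ± 0.22, both without overlap. The lymphoid homing receptor gene Ccr7 was at the floor in all tumors and at 6.73 ± 1.18 (SD, n = 4) in hyperplasia, with overlapping arrays (limma adjusted p = 1.36e-06).

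The fatty acid carrier genes Fabp5 and Fabp4 went in opposite directions. Fabp5, expressed in epithelium and skin, rose by 1.41 ± 0.38 without overlap (limma adjusted p = 0.0237). Its levels were 11.48 ± 0.74 (SD, n = 8) against 10.03 ± 0.26 (n = 4). Fabp4, expressed in fat cells and capillaries, fell, but lost its call in 7 of the 12 fits that left out 1 array. Fabp5 was also chosen after its values were seen and was not among the 66 genes called in both fits.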
